A study of Homo sapiens with 20 samples.

Results

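The enzymes described here chemically modify RNA after it has been transcribed. They were chosen by gene symbol, as the symbols that begin with TRMT, PUS, NSUN, METTL, MRM, ADAT, DUS, ELP, ALKBH, FTSJ or CTU and go on with a number in both deposited tables. There were 81 such genes among 45372 symbols. Transfer RNA carries more kinds of chemical change than any other RNA: methyl groups, pseudouridine, inosine and dihydrouridine are added by separate enzymes, often made of a catalytic and a partner subunit. Changes in the anticodon loop affect decoding, and changes in the body of the molecule affect its folding and stability. Ribosomal, messenger and mitochondrial RNAs have modifying enzymes of their own. The symbol rule is wider than this function: 14 of the 81 genes were placed in a group of protein methyltransferases and other METTL and NSUN genes, and the AlkB family (ALKBH) includes DNA repair enzymes as well as RNA demethylases.

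RNA was measured by stranded mRNA sequencing in HEK293T, a line derived from human embryonic kidney that expresses SV40 large T antigen. Cells received small interfering RNA (siRNA) against HUWE1, a HECT-type ubiquitin ligase, or non-targeting siRNA. The 20 libraries fell into 5 groups of 4 biological replicates, per the labels: non-targeting and HUWE1 siRNA without a set number (set 1 here), HUWE1 siRNA set 2, HUWE1 siRNA set 3, and 1 group of non-targeting controls shared by sets 2 and 3. The sources used here do not give the siRNA sequences, the time after transfection or what distinguishes the sets. Values were deposited as TPM, transcript abundance scaled for length and for the library total, with set 1 in one table and sets 2 and 3 in another. Sequencing depth is therefore unknown. In bulk RNA, fewer cells of a type and less RNA per cell cannot be told apart.

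HUWE1 itself was at 157, 162, 155 and 155 TPM in the set 1 controls and at 86.1, 86.9, 83.5 and 83.6 TPM after HUWE1 siRNA, or 54.1% of control. It was at 57.9% of control in set 2 and at 51.9% in set 3, with no overlap between groups in any set (two-sided exact permutation p = 0.0286 each, the smallest that 4 against 4 libraries allow). Among the 4 controls of sets 2 and 3, 2 libraries stood apart from each other. Replicate 1 was the highest and replicate 4 the lowest of the 4 in 41 of the 78 enzymes tested there (52.6%), against 29.5% of the 15860 genes tested. The reverse order, replicate 4 highest and replicate 1 lowest, held in 13 of the 78 enzymes and in 3501 of the 15860 genes. TPM summed over the 81 genes was 3630 in control replicate 1 and 3049 in control replicate 4, while the set 3 HUWE1 libraries ranged from 2982 to 3148. Results of sets 2 and 3 rest on these controls and are given with and without them. All 6 HEK293T markers had a mean of at least 1 TPM in every group. The summed HEK293T markers ranged over 875.7-928.8 TPM in the set 1 controls and over 752-794.1 TPM after HUWE1 siRNA, with NEFL, NEFM, VIM and KRT18 called lower, and 3 of 8 fibroblast markers (COL3A1, LUM and PDGFRA) were called higher in a list that summed to 26.0-28.1 and 30.9-33.4 TPM. Of the other fibroblast markers in set 1, COL1A1 and THY1 were not called, and COL1A2, DCN and PDGFRB were too low to be tested. In set 3, NEFL and NEFM were called lower and the other HEK293T markers were not called. VIM, KRT8 and KRT18 were at 125.8%, 110% and 105% of control there (limma adjusted p = 0.0576 for VIM), and PAX2 was at 71.3%. The summed HEK293T markers ranged over 989.2-1191 TPM in the shared controls and over 1134-1230 TPM in set 3. None of the 8 fibroblast markers was called in set 2 or set 3. In set 3 COL3A1, LUM and PDGFRA were at 92.88%, 106.2% and 109.6% of control. The part of these markers in the results below was not tested.

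In set 1, each of the 9 groups by role held at least 1 enzyme that fell. The number was 1 of 8 tested for wobble uridine and 1 of 7 for deamination and dihydrouridine. For methylation of mRNA and small nuclear RNA it was 1 of 4, and for protein methyltransferases and others 1 of 11. Over all genes 17.9% fell, and 1 fall in a group this small does not set it apart from that share. A gene was called where the limma adjusted p was under 0.05 on log2(TPM + 1) over all genes tested. Of the 77 enzymes tested, 26 fell (33.8%; 17.9% of all 16057 genes tested fell) and 4 rose (5.19%; 12.3% of all genes rose), while 30.3% of all genes changed in either direction. The median log2 fold change was -0.058 over the 77 enzymes and -0.012 over all genes. In 27 of the 77, every HUWE1 siRNA library was below every control (18.4% of all genes), and in 5 every one was above (13.3%). Changes were moderate, and the deepest fall, of MRM1, left 66.4% of the control mean. The count lower stayed between 22 and 26 whichever library was left out. The count higher was 2 without HUWE1 replicate 2 or 4. With quantile normalization the split was 24 lower and 8 higher, beside 14.7% of all genes lower.

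**Figure D1:**
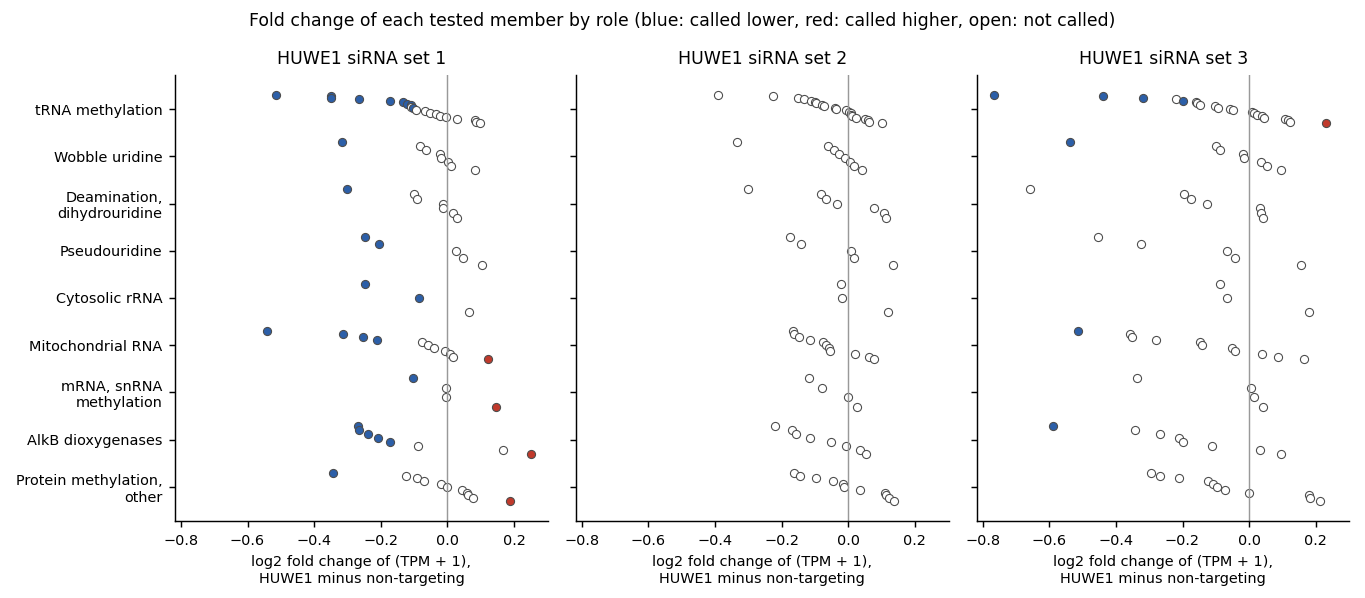
Log2 fold change of TPM + 1, HUWE1 siRNA minus non-targeting siRNA, of each tested enzyme (1 point per gene, rows by role) in sets 1, 2 and 3; filled points passed a limma adjusted p of 0.05. In set 1, 26 enzymes were lower and 4 higher, in set 2 none was called, and in set 3, which shares its controls with set 2, 7 were lower and 1 higher.

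Of the enzymes that fell in both set 1 and set 3, TRMT61A, MRM1, METTL1 and CTU2 had the largest folds in set 1, and the sequence before their start is shown for those with an entry in the RefSeq promoter table (GRCh38.p14): TRMT61A at chr14:103528946-103529183, MRM1 at chr17:36601333-36601571 and CTU2 at chr16:88706253-88706462, all on the plus strand. METTL1 had no entry. Each stretch begins 250 bases before the RefSeq start and ends at the last base before the gene start of GENCODE 29. Capitals mark GACGTCA, the core of the cyclic AMP response element, on either strand.
TRMT61A: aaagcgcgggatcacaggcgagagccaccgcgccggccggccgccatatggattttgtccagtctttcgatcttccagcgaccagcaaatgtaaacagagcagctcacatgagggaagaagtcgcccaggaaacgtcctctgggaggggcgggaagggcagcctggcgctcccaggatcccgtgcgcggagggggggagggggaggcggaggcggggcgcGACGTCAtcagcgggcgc
MRM1: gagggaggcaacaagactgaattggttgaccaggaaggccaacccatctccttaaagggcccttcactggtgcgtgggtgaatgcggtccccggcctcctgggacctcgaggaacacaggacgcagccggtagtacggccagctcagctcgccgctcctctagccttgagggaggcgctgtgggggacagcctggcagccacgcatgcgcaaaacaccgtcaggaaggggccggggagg
CTU2: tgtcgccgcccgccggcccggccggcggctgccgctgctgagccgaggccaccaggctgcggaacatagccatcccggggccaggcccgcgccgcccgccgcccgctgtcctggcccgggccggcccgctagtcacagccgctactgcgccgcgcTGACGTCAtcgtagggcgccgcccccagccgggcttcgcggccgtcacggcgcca
The TRMT61A match lay 30 bases before the RefSeq start. In CTU2 the capitals hold 2 overlapping matches on opposite strands, 95 and 94 bases before the start, and a further match, 36 bases before the start, lies past the stretch shown. MRM1 held none. Over the 250 bases, GACGTCA occurred in 3.12% of all 35116 promoter entries, in 11 of 89 entries of 66 enzymes (12.4%) and in 6 of 26 entries of the enzymes lower in set 1 (23.1%). Those 26 entries belong to 24 enzymes. This word was picked after the letters had been read, and TRMT61A and CTU2 are themselves counted among the matches. These shares are therefore a description without a test. TRMT44 also held it, and ALKBH8 and FTSJ1 did not. The E-box CACGTG, a palindrome, occurred in 6.34% of all entries and in 1 of the 89. The C/EBP-ATF element TGATGCAA, searched on both strands, occurred in 0.772% of all entries and in none of the 89. The median GC content was 58% over all entries and 61.6% over the entries of the enzymes.

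Enzymes that methylate bases and riboses of tRNA formed the largest group. Of the 20 tested, 9 fell in set 1 (17.9% of all genes) and none rose (12.3% of all genes). Both subunits of the m1A methyltransferase of tRNA fell. TRMT61A, its catalytic subunit (chr14:103529184-103537073, plus strand, GRCh38), was at 74.1, 74.7, 72.5 and 73.5 TPM in the controls and at 50.9, 54.2, 49.4 and 50.6 TPM after HUWE1 siRNA. The 4 controls lay within a narrow band and every HUWE1 library lay well under it, for a log2 fold change of -0.52 (SE 0.0310, limma adjusted p = 1.09e-05). TRMT6, the partner that helps bind tRNA (chr20:5937235-5950558, minus strand), went from 40.8, 39.2, 42.8 and 40.8 to 33.6, 31.3, 31.2 and 31.5 TPM, a log2 fold change of -0.35 (SE 0.0359, limma adjusted p = 0.000192). Neither subunit's groups overlapped.

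METTL1, which places m7G in tRNA together with the scaffold protein WDR4, was at 81.9, 74.6, 73.2 and 73.4 TPM in the set 1 controls and at 57.2, 59.6, 59.6 and 60.1 TPM after HUWE1 siRNA. Its log2 fold change was -0.35 (SE 0.0379, limma adjusted p = 0.000244), with control replicate 1 above the other controls. WDR4, which the symbol rule does not take, went from 54.2, 49.5, 48.6 and 53.98 to 41.3, 42.7, 42.2 and 43.03 TPM and fell by 0.28 on the log2 scale (limma adjusted p = 0.000895). Both partners were therefore lower, without overlap. The METTL1 gene (chr12:57768471-57772793, minus strand) shares exon bases with CYP27B1 on the same strand and with EEF1AKMT3 on the other. The larger of these overlaps, whichever the neighbour, covers 19.3% of its exon bases. Reads from the shared parts, above all the same-strand part, are uncertain.

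FTSJ1, a ribose methylase of the anticodon loop, was at 73.1, 72.3, 67.2 and 69.6 TPM in the set 1 controls and at 61.5, 64.8, 65.3 and 65.6 TPM after HUWE1 siRNA (chrX:48476021-48486364, plus strand; log2 fold change -0.13, SE 0.0335, limma adjusted p = 0.0152). WDR6, a partner of FTSJ1, was at 439, 437, 430.2 and 434 TPM in the controls and at 459, 481, 445 and 441 TPM after HUWE1 siRNA and did not pass (limma adjusted p = 0.0944). TRMT44, the counterpart of a yeast ribose methylase of serine tRNA, moved from 15.5, 14.9, 15.5 and 15.3 to 14.2, 14.1, 14.1 and 13.6 TPM (chr4:8436140-8493531, plus strand; log2 fold change -0.12, SE 0.0325, limma adjusted p = 0.0199). The TRMT44 change was small, and its call was lost without control replicate 3 (limma adjusted p = 0.0516) or without HUWE1 replicate 4 (0.0581). TRMT10A, which methylates guanosine in tRNA, fell to 82.3% of the control mean. The m3C methyltransferases METTL2A, METTL2B and METTL6 were at 88.6%, 92.4% and 92.7% of control. METTL2A and METTL2B are near-identical copies whose reads could be split between them. METTL2B lost its call without any single library other than control replicate 2 and HUWE1 replicate 4 (limma adjusted p up to 0.0732). METTL6 lost it under 12 of 15 alternatives, among them the absence of any library but HUWE1 replicate 1 (up to 0.133).

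Of the tRNA methylases that did not pass in set 1, TRMT112 is the activator shared by several methyltransferases. TRMT112 was at 204, 189.9, 198 and 201 TPM in the controls and at 202, 210, 215 and 215 TPM after HUWE1 siRNA (log2 fold change 0.085, limma adjusted p = 0.0568). It was called higher under 6 of 15 alternatives, among them the absence of control replicate 1 or HUWE1 replicate 1, with a limma adjusted p from 0.0244 to 0.14 over the 15. TRMT1L, a paralog of the guanosine methylase TRMT1, was at 20.8, 18.5, 20.5 and 20.3 TPM in the controls and at 19.8, 19.3, 19.7 and 19.9 TPM after HUWE1 siRNA (log2 fold change -0.021, limma adjusted p = 0.727). In both genes the groups overlapped. The other 9 that did not pass ranged from -0.11 (TRMT5) to 0.10 (TRMT2A) on the log2 scale, and the m5C methyltransferase NSUN2 was at -0.053.

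Wobble uridine, the first base of the anticodon, is modified by the Elongator complex and then thiolated by CTU1 and CTU2. Of CTU1, CTU2 and the subunits ELP2 to ELP6, CTU2 was the 1 gene that passed in set 1, where 30.3% of all genes passed. CTU2 was at 49.95, 46.4, 49.6 and 48.8 TPM in the controls and at 39.3, 40.9, 37.1 and 38.4 TPM after HUWE1 siRNA, a log2 fold change of -0.32 (SE 0.0365, limma adjusted p = 0.000334), with all 4 HUWE1 libraries below all controls. Its gene (chr16:88706463-88715386, plus strand) shares up to 8.3% of its exon bases with a gene on the other strand. CTU1, its partner, was at 16.4, 15.5, 15.4 and 14 TPM in the controls and at 13.1, 15.5, 13.9 and 15.1 TPM after HUWE1 siRNA (log2 fold change -0.083, SE 0.0595, limma adjusted p = 0.323). The CTU1 groups overlapped, and the difference between the CTU1 and CTU2 changes was not tested.

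The Elongator subunits ELP2 to ELP6 did not pass in set 1. ELP2, a scaffolding subunit, was at 51.8, 50.8, 51.3 and 52.03 TPM in the controls and at 51.1, 51.5, 51.5 and 51.9 TPM after HUWE1 siRNA. ELP3, the catalytic subunit, was at 29.3, 28.5, 26.4 and 28.1 TPM in the controls and at 26.6, 27.7, 28.2 and 28.3 TPM after HUWE1 siRNA. In both genes the groups overlapped. ELP4 was at 1.97, 2.03, 2.14 and 2.31 TPM in the controls and at 2.19, 2.31, 2.21 and 2.47 TPM after HUWE1 siRNA. ELP5 was at 97.3, 96.7, 99.9 and 94.8 TPM in the controls and at 95.1, 95.04, 91.04 and 90.7 TPM after HUWE1 siRNA. ELP6 was at 36.7, 35.1, 33.7 and 35.4 TPM in the controls and at 34.9, 35.3, 34.5 and 33.8 TPM after HUWE1 siRNA. Log2 fold changes of these 5 ran from -0.063 (ELP5) to 0.084 (ELP4), with SE between 0.0223 (ELP2) and 0.0682 (ELP4), and the lowest limma adjusted p was 0.104 (ELP5). Of the 5, ELP4 had the lowest level per length.

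**Figure D2:**
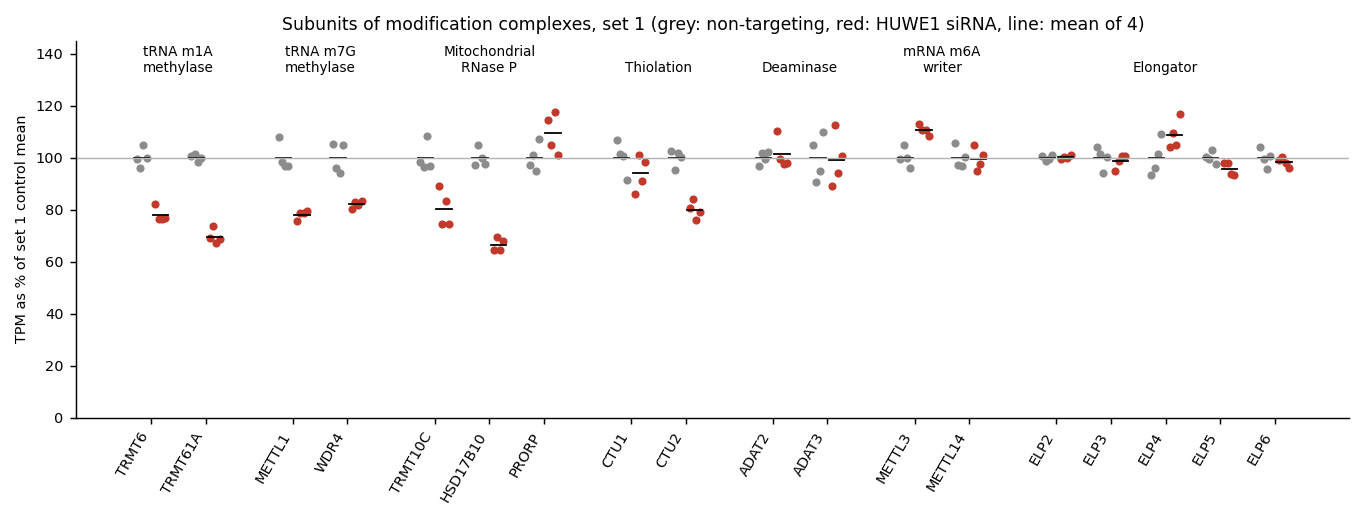
TPM of subunits of modification complexes in set 1 as percent of the set 1 control mean; points are libraries (grey non-targeting, red HUWE1 siRNA), lines the means of 4. TRMT6, TRMT61A, METTL1, WDR4, TRMT10C, HSD17B10 and CTU2 passed the test below 100% and METTL3 above it, while CTU1, PRORP, METTL14, ADAT2, ADAT3 and ELP2 to ELP6 did not pass.

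Enzymes that deaminate adenosine to inosine or reduce uridine to dihydrouridine gave 1 call, a fall, among 7 in set 1. Over all genes 17.9% fell. ADAT1, an adenosine deaminase of alanine tRNA, fell to 80.4% of the control mean (log2 fold change -0.30, limma adjusted p = 0.000643). The 2 subunits of the wobble deaminase did not pass. ADAT2, the catalytic subunit, was at 40.5, 42.6, 41.6 and 42.7 TPM in the controls and at 46.1, 41.6, 40.8 and 41.03 TPM after HUWE1 siRNA (limma adjusted p = 0.781). ADAT3 was at 34.9, 30.2, 31.5 and 36.6 TPM in the controls and at 29.7, 37.5, 31.3 and 33.5 TPM after HUWE1 siRNA (limma adjusted p = 0.909). The ADAT3 gene shares 35.4% of its exon bases with SCAMP4 on the same strand, and its values may hold reads of that gene. The 4 dihydrouridine synthases ranged from -0.10 (DUS4L) to 0.03 (DUS3L) on the log2 scale. Among 5 stand-alone pseudouridine synthases, PUS1, which acts on cytosolic and mitochondrial tRNA, fell to 83.97% and PUS3 to 86.4% of control (log2 fold changes -0.25 and -0.21; limma adjusted p 0.000554 and 0.00138). PUS7, PUS7L and PUS10 did not pass, at 0.027, 0.048 and 0.10. Of 3 enzymes of cytosolic ribosomal RNA, METTL5, the m6A methyltransferase of the small subunit, fell to 83.9% of control. NSUN5, an m5C methyltransferase of the large subunit, fell to 94.2%, a change that missed the threshold with median-of-ratios scaling (limma adjusted p = 0.0505) and quantile normalization (0.0602). FTSJ3, a ribose methylase of pre-ribosomal RNA, was at 105% and did not pass (limma adjusted p = 0.0726).

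Among 11 enzymes of mitochondrial RNA, 4 fell and 1 rose in set 1 (17.9% of all genes fell and 12.3% rose). MRM1, MRM2 and MRM3 each methylate a ribose of the large mitochondrial ribosomal RNA, and all 3 were lower. MRM1 (chr17:36601572-36608971, plus strand) was at 14.5, 13.8, 12.97 and 14.6 TPM in the controls and at 8.58, 9.13, 9.17 and 10.2 TPM after HUWE1 siRNA, a log2 fold change of -0.54 (SE 0.0567, limma adjusted p = 0.000203). No HUWE1 library reached the lowest control. MRM2 fell to 86.2% of control and MRM3 to 83.8%, and MRM3 shares 34.9% of its exon bases with GLOD4 on the other strand. TRMT2B, an m5U methyltransferase, rose from 27.2, 26.3, 25.8 and 25.9 to 27.9, 29.02, 28.8 and 29.2 TPM (log2 fold change 0.12, SE 0.0296, limma adjusted p = 0.0116). The mitochondrially encoded share of TPM was 24.3-26.2% over the 8 libraries of set 1.

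Mitochondrial RNase P, which cuts the 5′ ends of mitochondrial tRNA, joins the methyltransferase TRMT10C and the dehydrogenase HSD17B10 to the nuclease PRORP. TRMT10C fell to 80.4% of the set 1 control mean (log2 fold change -0.31, limma adjusted p = 0.00432). HSD17B10 went from 225, 243, 231 and 226 to 149, 160, 149 and 157 TPM, a log2 fold change of -0.58 (SE 0.0336, limma adjusted p = 1.04e-05). PRORP, listed under an older symbol, was at 9.83, 10.2, 9.58 and 10.8 TPM in the controls and at 11.6, 10.6, 11.9 and 10.2 TPM after HUWE1 siRNA and did not pass (limma adjusted p = 0.138). The HSD17B10 gene (chrX:53431258-53434373) lies 97722 bases from HUWE1 (chrX:53532096-53686729), both on the minus strand of chromosome X. In sets 2 and 3 HSD17B10 was at 98.1% and 99.1% of the shared controls and was not called in either.

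The methyltransferases of mRNA and small nuclear RNA did not move together in set 1. Of the 4 tested, 1 fell and 1 rose (17.9% of all genes fell and 12.3% rose). METTL3, the catalytic subunit of the m6A writer, was at 67.95, 71.5, 68.1 and 65.5 TPM in the controls and at 77.2, 75.6, 75.4 and 73.9 TPM after HUWE1 siRNA, a rise of 0.15 on the log2 scale (SE 0.0298, limma adjusted p = 0.00562). METTL14, its partner, was at 23.4, 21.5, 21.4 and 22.2 TPM in the controls and at 23.2, 21, 21.6 and 22.4 TPM after HUWE1 siRNA (log2 fold change -0.005, SE 0.0412, limma adjusted p = 0.934). The METTL3 groups did not overlap and the METTL14 groups did. METTL16, an m6A methyltransferase of U6 small nuclear RNA, fell to 92.9% of control, a call lost without control replicate 4 (limma adjusted p = 0.054). METTL4 was at 99.8% of control.

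Of the 8 AlkB dioxygenases, 5 fell and 1 rose in set 1 (17.9% of all genes fell and 12.3% rose). ALKBH8, which also carries the methyltransferase that finishes wobble uridine (chr11:107502726-107565746, minus strand), was at 31.4, 30.7, 32.4 and 29.1 TPM in the controls and at 27.4, 24.3, 25.7 and 24.6 TPM after HUWE1 siRNA (log2 fold change -0.27, SE 0.0458, limma adjusted p = 0.00232). ALKBH1, a demethylase of tRNA, fell to 82.9% of control, and ALKBH2 and ALKBH3, which remove alkyl damage from DNA, to 86.4% and 84.3%. ALKBH4 fell to 88.6% with overlapping groups, and lost its call without control replicate 1, 3 or 4 or HUWE1 replicate 1 or 4 (limma adjusted p up to 0.0725). ALKBH7, a mitochondrial protein, rose from 49.2, 42.1, 49.8 and 51.2 to 51.3, 60.3, 57.1 and 60.7 TPM (log2 fold change 0.25, SE 0.0680, limma adjusted p = 0.0201). That rise missed the threshold without HUWE1 replicate 2 (limma adjusted p = 0.0548) or HUWE1 replicate 4 (0.0595), and with no filter (0.0564). The mRNA m6A demethylase ALKBH5, with the highest level per length of all 81 genes in these controls, was at 220.4 and 207 TPM on average and did not pass (limma adjusted p = 0.0616), nor did ALKBH6 (0.0701).

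In the group of protein methyltransferases and other METTL and NSUN genes, 1 of the 11 tested fell and 1 rose in set 1. Over all genes 17.9% fell and 12.3% rose. METTL18, a histidine methyltransferase of a ribosomal protein, went from 36.5, 37.1, 39.2 and 38.7 to 31.6, 27.9, 30.9 and 28.2 TPM (log2 fold change -0.34, SE 0.0454, limma adjusted p = 0.000631). METTL25 went from 5.90, 5.40, 5.59 and 6.48 to 7.15, 6.59, 6.54 and 6.90 TPM (log2 fold change 0.19, SE 0.0586, limma adjusted p = 0.0348). When 1 library was left out, the METTL25 call held without control replicate 4 and was lost without any other (limma adjusted p up to 0.0854), as it was with no filter (0.0815). The 9 others ranged from -0.12 (METTL7B) to 0.077 (METTL23) on the log2 scale. METTL21C, METTL24 and NSUN7 were below the filter of 1 TPM in 4 libraries in both tables, and TRMT9B, a tRNA methylase, was below it in the table of set 1.

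Modification genes that the symbol rule does not take were compared in the same fit, from a list of 75 that held pseudouridine, queuosine, KEOPS, box C/D and box H/ACA, mRNA methylation and other modification proteins. In set 1, 26 of the 74 tested fell (35.1%; 17.9% of all genes) and 2 rose (12.3% of all genes), with a median log2 fold change of -0.06. Those with the smallest p were HSD17B10, given above, DKC1, the pseudouridine synthase of box H/ACA particles (log2 fold change -0.22), GON7, a KEOPS subunit (-0.34), and RPUSD2, a pseudouridine synthase (-0.31). The 2 that rose were MEPCE, which caps 7SK RNA (0.13), and ZC3H13, a subunit of the m6A writer (0.094). The ZC3H13 rise was lost without control replicate 1 or 2 or HUWE1 replicate 3 or 4 (limma adjusted p up to 0.0724). Other subunits of the m6A writer did not rise. RBM15 and RBM15B were called lower (log2 fold changes -0.128 and -0.215, limma adjusted p = 0.00491 and 0.00105). WTAP, VIRMA and CBLL1 were not called.

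In set 3, 7 of the 78 enzymes tested fell (8.97%; 4.15% of all 15860 genes tested fell) and 1 rose (1.28%; 7.45% of all genes rose), while 11.6% of all genes changed in either direction. The 7 were TRMT61A, MRM1, METTL1, CTU2, ALKBH8, FTSJ1 and TRMT44, all of which had also fallen in set 1, a table that shares no library with this one. Of the 77 enzymes tested in both tables, 7 fell in both sets 1 and 3. Of the 15296 genes tested in both tables, 314 (2.05%) fell in both sets and 2.47% rose in both. Over all genes 658 fell in set 3, so a fall shared with set 1 was not particular to the enzymes. No enzyme rose in both sets or was called in opposite directions. The median log2 fold change in set 3 was -0.08 over the enzymes and 0.007 over all genes. In 9 of the 78 every HUWE1 library was below every control (6.03% of all genes) and in 3 every one was above (11.2%). With median-of-ratios scaling, 11 enzymes and 6.08% of all genes were lower, and all 7 were among the 11. Over all genes that scaling gave 964 lower and 895 higher, against 658 and 1181 as deposited. The sets were not tested against set 1, since the tables were normalized separately.

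These 7 are given with set 2, which used the same 4 controls. TRMT61A was at 74.5, 46.6, 49.7 and 33.7 TPM in the shared controls, a 2.21-fold span from replicate 1 to replicate 4, and at 30.9, 31.7, 25.03 and 26.8 TPM in set 3 (log2 fold change -0.77, SE 0.181, limma adjusted p = 0.0263). In set 2 it was at 32.1, 36.8, 38.5 and 42.3 TPM (-0.39, limma adjusted p = 0.562). Every set 3 library lay below control replicate 4, and 1 set 2 library did. MRM1 was at 19.7, 17.9, 18.6 and 15.96 TPM in the controls and at 11.9, 14.6, 12.2 and 10.8 TPM in set 3 (log2 fold change -0.51, SE 0.0845, limma adjusted p = 0.00912). In set 2 MRM1 was at 14.7, 16.5, 16.7 and 16.1 TPM (-0.16, limma adjusted p = 0.587). The MRM1 controls were closer together, and set 3 lay below all of them while set 2 overlapped them.

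METTL1 was at 46.8, 30.02, 35.1 and 28.6 TPM in the shared controls and at 23.6, 25.3, 26.01 and 25.8 TPM in set 3 (log2 fold change -0.44, SE 0.121, limma adjusted p = 0.0392). In set 2 it was at 26.3, 29.4, 31.9 and 29.9 TPM (-0.23, limma adjusted p = 0.591). Its partner WDR4 was at 71.2% of control in set 3 and did not pass (limma adjusted p = 0.0538). CTU2 was at 39.6, 29.3, 32.6 and 24.1 TPM in the controls and at 21.4, 23.3, 19.2 and 20.3 TPM in set 3 (log2 fold change -0.54, SE 0.121, limma adjusted p = 0.0231). In set 2 CTU2 was at 21.5, 24.02, 25.4 and 26.6 TPM (-0.33, limma adjusted p = 0.492). Set 3 lay below all controls for both METTL1 and CTU2, and in set 2 each had libraries above control replicate 4.

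ALKBH8 was at 43.2, 28.98, 32.7 and 21.4 TPM in the shared controls and at 21.4, 22.4, 17.4 and 19.4 TPM in set 3 (log2 fold change -0.59, SE 0.171, limma adjusted p = 0.0459). In set 2 it was at 21.5, 25.2, 27.8 and 30.9 TPM (-0.22, limma adjusted p = 0.676). Control replicate 4 lay within the set 3 values of ALKBH8. FTSJ1 was at 67.6, 67.99, 66.1 and 61.7 TPM in the controls and at 57.9, 58.3, 58.6 and 53.9 TPM in set 3 (log2 fold change -0.20, SE 0.0447, limma adjusted p = 0.0226). In set 2 FTSJ1 was at 58.5, 60.9, 63.3 and 62.5 TPM (-0.10, limma adjusted p = 0.546). FTSJ1 had the tightest controls of the 7 relative to their level, and set 3 did not overlap them. TRMT44 was at 15.9, 14.1, 14.04 and 11.6 TPM in the controls and at 11.4, 11.8, 9.62 and 10.9 TPM in set 3 (log2 fold change -0.32, SE 0.0928, limma adjusted p = 0.0462). In set 2 TRMT44 was at 11.1, 12.6, 12.6 and 13.9 TPM (-0.13, limma adjusted p = 0.656). Set 3 and the controls of TRMT44 overlapped at 1 library each.

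**Figure D3:**
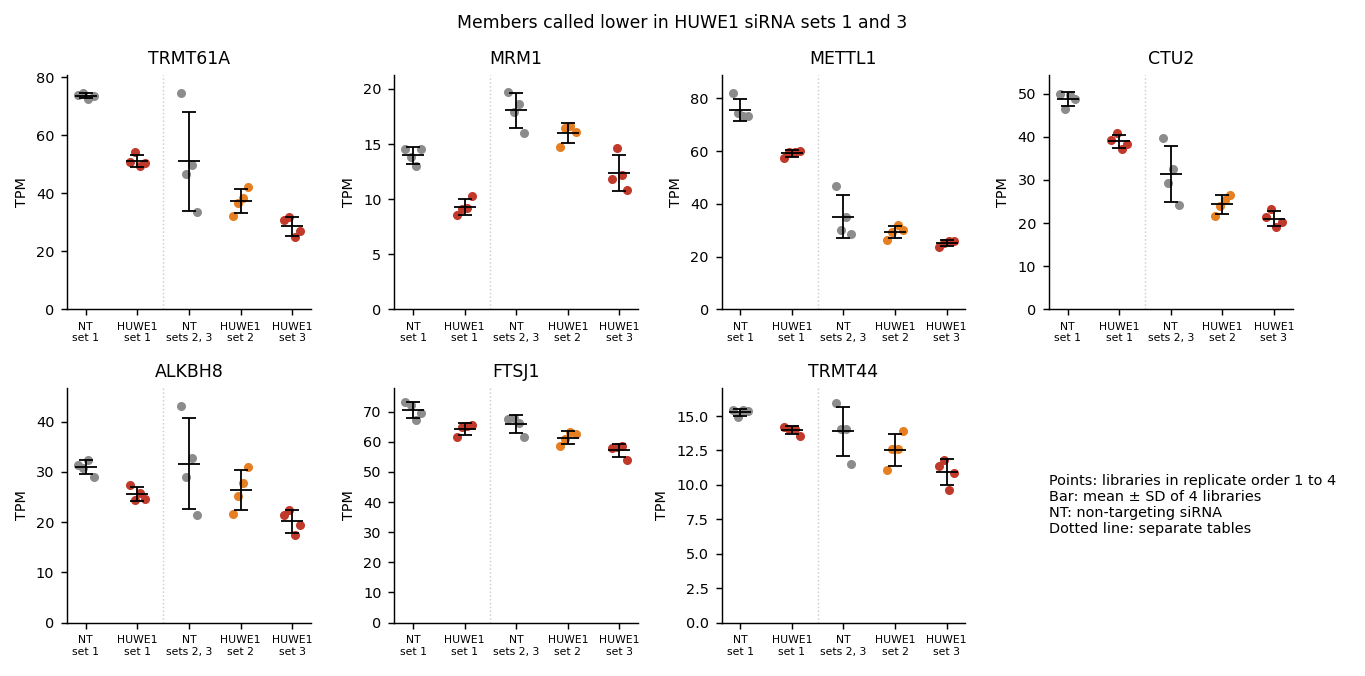
TPM in each library (points, replicates 1 to 4 from left to right) of the 7 enzymes called lower in both set 1 and set 3, with mean ± SD of 4 libraries; the dotted line separates tables that were normalized separately. The controls of sets 2 and 3 spread more widely than those of set 1, from 33.7 to 74.5 TPM for TRMT61A, and set 2 overlapped them for all 7.

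The set 3 calls depended on single libraries. The number of enzymes lower was 7 with all libraries (4.15% of all genes were lower) and 31 without control replicate 4 (18% of all genes). It was 5 without control replicate 1 (1.66% of all genes), 4 without HUWE1 replicate 2 (2.74%), and 1 without control replicate 2 or 3 or HUWE1 replicate 1, 3 or 4 (0.392% to 1.34%). With no filter it was 2 (0.838% of all genes), and a fit on the 8 libraries of the comparison alone gave 1 (0.823%). In each of these fits with fewer than 7 enzymes lower, the share of all genes lower was also under 4.15%. Without both control replicates 1 and 4 it was 19, beside 8.61% of all genes. MRM1 kept its call under all 17 alternatives, with a limma adjusted p from 0.00175 to 0.0416. The other 6 lost theirs in each of the fits with 1 enzyme lower, and over all alternatives the limma adjusted p reached 0.0832 for TRMT61A, 0.0965 for METTL1, 0.0758 for CTU2, 0.127 for ALKBH8, 0.0758 for FTSJ1 and 0.13 for TRMT44. ALKBH8 and TRMT44 also lost it without control replicate 1, and those 2 and METTL1 without HUWE1 replicate 2. With no filter, MRM1 and FTSJ1 were the 2 that held. No alternative turned the sign of any of the 7. The mitochondrially encoded share of TPM was 15.5-16.4% in the 4 set 3 HUWE1 libraries, below the 16.6-18.3% of the 4 shared controls. With mitochondrially encoded genes taken out and the rest rescaled, 9 enzymes were lower in set 3, beside 5.3% of all genes.

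**Figure D4:**
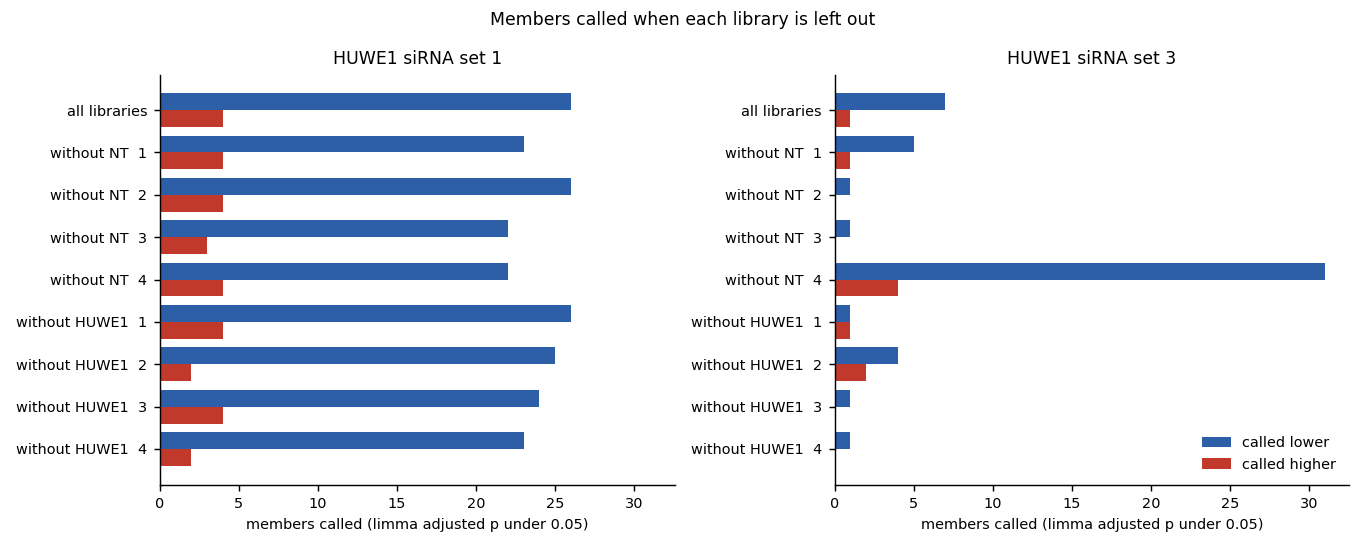
Number of enzymes called lower (blue) and higher (red) by limma in set 1 and set 3 with all libraries and with each library left out (NT is non-targeting). In set 1 the number lower stayed between 22 and 26, and in set 3 it ranged from 1 to 31.

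TRMT1L was the 1 enzyme that rose in set 3, from 28.03, 26.5, 27.5 and 29.3 TPM in the shared controls to 34.1, 30.9, 32.9 and 33.5 TPM (log2 fold change 0.23, SE 0.0473, limma adjusted p = 0.0181). It was at 29.9, 27.8, 30.3 and 28.3 TPM in set 2 (limma adjusted p = 0.678). All set 3 libraries were above all controls, and the call was lost without control replicate 2 or 3 or HUWE1 replicate 3 or 4 (limma adjusted p up to 0.0637). Of the enzymes that rose in set 1, TRMT2B was at 31.6, 35.6, 33.9 and 35.9 TPM in the shared controls, at 39.1, 34.9, 35.7 and 34.98 TPM in set 2 and at 38.95, 36.6, 39.3 and 39.1 TPM in set 3 (limma adjusted p = 0.0557). Set 3 did not overlap the controls of TRMT2B but missed the threshold. TRMT2B was called higher in set 3 under 2 of 17 alternatives (limma adjusted p down to 0.02). METTL3 was at 42.6, 46.6, 47.95 and 47.9 TPM in the controls, at 47.4, 45.98, 48.4 and 46.4 TPM in set 2 and at 46.5, 46.97, 49.1 and 47.5 TPM in set 3 (limma adjusted p = 0.526). ALKBH7 was at 71.4, 76.8, 74.2 and 76.1 TPM in the controls, at 74.3, 77.9, 76.7 and 76.9 TPM in set 2 and at 68.2, 83.5, 83.2 and 71.8 TPM in set 3 (limma adjusted p = 0.718 in set 3). METTL25 was at 5.82, 5.59, 5.47 and 5.89 TPM in the controls, at 6.59, 5.57, 6.67 and 6.38 TPM in set 2 and at 7.06, 5.59, 6.63 and 7.11 TPM in set 3 (limma adjusted p = 0.117 in set 3). For METTL3, ALKBH7 and METTL25 the set 3 values overlapped the controls. METTL25 was called higher in set 3 under 1 of 17 alternatives (limma adjusted p = 0.0471).

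Of the enzymes that fell in set 1 and were not called in set 3, TRMT6 was at 51.3, 38.1, 42.7 and 34.9 TPM in the shared controls, at 39.6, 36.03, 39.7 and 38.9 TPM in set 2 and at 37.8, 36.9, 38.1 and 36 TPM in set 3 (-0.15, limma adjusted p = 0.257). METTL18 was at 40.6, 28.7, 31.6 and 23.5 TPM in the controls, at 22.99, 25.4, 29.7 and 31.1 TPM in set 2 and at 26.5, 24.9, 25.6 and 23.8 TPM in set 3 (-0.27, limma adjusted p = 0.176 in set 3). Without control replicate 4, TRMT6 and METTL18 were called lower in set 3 (limma adjusted p = 0.0411 and 0.0222). In both genes control replicate 1 was the highest value of all 12 and control replicate 4 lay among or below the HUWE1 libraries. Of the 26 enzymes lower in set 1, 24 had a log2 fold change below 0 in set 2, and METTL5 and TRMT10A, the remaining 2, were above 0, at 0.12 and 0.01. In set 3, against the same controls, METTL5 was at 0.18 and TRMT10A at 0.024, and the other 24 were below 0. Of all 78 enzymes tested, 47 were below 0 in set 2 and 50 in set 3. Of all 15860 genes, 8172 and 7680 were. The like share among all genes lower in set 1 was not computed. The 24 of 26 is therefore not shown to be particular to these enzymes. In 22 of the 26, control replicate 1 was the highest and control replicate 4 the lowest of the 4 controls (84.6%). That order held in 52.6% of all enzymes tested there and in 29.5% of all genes.

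CTU1, ADAT2, ADAT3, METTL14 and TRMT112 were not called in sets 2 and 3 with all libraries. CTU1 was at 29.95, 29.3, 26.9 and 29.9 TPM in the shared controls, at 26.4, 31.6, 28.1 and 26.7 TPM in set 2 and at 27.2, 31.9, 25.6 and 23.8 TPM in set 3. ADAT2 was at 35.5, 31.4, 34.9 and 28.6 TPM in the controls, at 33.4, 34.7, 36.1 and 36.7 TPM in set 2 and at 34.1, 32.1, 34.8 and 32.8 TPM in set 3. ADAT3 was at 34.4, 19.8, 25.6 and 13 TPM in the controls, at 12.6, 17.7, 18.1 and 23.6 TPM in set 2 and at 13.9, 16.5, 12.7 and 11.4 TPM in set 3. ADAT3 had the second largest set 3 difference of all tested enzymes, -0.66 on the log2 scale, with SE 0.246 and a limma adjusted p of 0.0857, over controls that spanned 13.0 to 34.4 TPM. ADAT3 was called lower in set 3 without control replicate 4 (limma adjusted p = 0.00731) and without control replicates 1 and 4 together (0.0331). METTL14 was at 29.3, 26.03, 28.3 and 25.7 TPM in the controls, at 25.99, 25.7, 28.2 and 29.4 TPM in set 2 and at 28.1, 27.3, 26.99 and 27.1 TPM in set 3. TRMT112 was at 238, 266, 268 and 263 TPM in the controls, at 252, 268, 245 and 269 TPM in set 2 and at 269, 273, 263 and 259 TPM in set 3. Neither moved by more than 0.043 on the log2 scale in set 3.

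ELP2 to ELP6 did not pass in the second table either. ELP2 was at 53.4, 57.8, 58.5 and 62.5 TPM in the controls, at 59.9, 58.2, 57.99 and 56.6 TPM in set 2 and at 59.4, 56.3, 60.3 and 61.5 TPM in set 3. ELP3 was at 30.8, 31.3, 31.4 and 32.7 TPM in the controls, at 33.2, 30.4, 29.9 and 30.1 TPM in set 2 and at 30.4, 31.04, 31.3 and 32.01 TPM in set 3. In neither gene did the groups separate. ELP4 was at 2.68, 3.49, 3.41 and 3.47 TPM in the controls, at 3.57, 3.03, 3.26 and 3.35 TPM in set 2 and at 3.44, 3.44, 3.65 and 3.66 TPM in set 3. ELP5 was at 91.96, 86.7, 87.2 and 79.5 TPM in the controls, at 79.7, 84.7, 79.7 and 86.6 TPM in set 2 and at 82.1, 86.3, 77.1 and 79.3 TPM in set 3. ELP6 was at 43.5, 44.6, 46.2 and 47.97 TPM in the controls, at 49.1, 45.8, 47.1 and 45.5 TPM in set 2 and at 43.1, 45.95, 44.8 and 46.1 TPM in set 3. Their set 3 log2 fold changes ran from -0.087 (ELP5) to 0.10 (ELP4), and the lowest limma adjusted p was 0.249 (ELP5).

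In set 2, limma called 0 of the 78 enzymes, where 0.0126% of all 15860 genes tested were called, HUWE1 among them. Under an unadjusted 0.05 limma placed 2 enzymes, CTU2 (-0.33, SE 0.121) and FTSJ1 (-0.10, SE 0.0447), and 1400 of all genes. Groups were apart in 1 enzyme, the tRNA methylase TRMT9B, with HUWE1 siRNA above the controls (1.99% of all genes), and in 0 with it below (1.71%). The median log2 fold change was -0.032 over the enzymes and -0.004 over all genes. The test of set 3 against set 2 called 0 of the 78 enzymes and 0.517% of all genes (0.309% higher and 0.208% lower in set 3). Set 3 lay wholly above set 2 in 1 enzyme (8.13% of all genes) and wholly below it in 8 (5.05%). At an unadjusted p under 0.05 there were 8 enzymes, beside 2506 of all 15860 genes. Of the enzymes, MRM1 (-0.35, SE 0.0845, limma adjusted p = 0.0889) and TRMT1L (0.17, SE 0.0473, limma adjusted p = 0.125) had the smallest p. Without HUWE1 set 3 replicate 2, 1 enzyme passed. A call in set 3 and not in set 2 is therefore not shown to be a difference between the sets.

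Of the 74 other modification genes tested in the second table, 0 were called in set 2 by limma. At an unadjusted p under 0.05 there were 4, beside 1400 of all 15860 genes. In set 3, 8 fell (10.8%; 4.15% of all genes) and 2 rose (7.45% of all genes). Of those that fell, the smallest p belonged to DKC1 (log2 fold change -0.25, limma adjusted p = 0.0138), QTRT1, the catalytic subunit of the queuosine enzyme (-0.31, 0.0212), RPUSD2 (-0.39, 0.0298) and GTPBP3, which modifies wobble uridine of mitochondrial tRNA (-0.32, 0.0305). TPRKB, a KEOPS subunit, rose (0.29, limma adjusted p = 0.0122), and so did PRORP (0.32, limma adjusted p = 0.0483), at 10.1, 11.9, 12.2 and 14.5 TPM in the controls and 14.4, 13.9, 15.7 and 17.5 TPM in set 3. PRORP groups overlapped, and its call was lost under 12 of 17 alternatives, with a limma adjusted p of up to 0.133. DKC1 lost its call without HUWE1 replicate 3 (limma adjusted p = 0.0506), and QTRT1, RPUSD2 and GTPBP3 lost theirs without control replicate 2 or 3 or HUWE1 replicate 3 or 4, at up to 0.0663, 0.0916 and 0.095. QTRT1 and GTPBP3 also lost it without HUWE1 replicate 1, and RPUSD2 and GTPBP3 without control replicate 1.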

How the data were processed

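TPM values of 20 HEK293T libraries were used. The authors deposited them as TPM in 2 tables. Every library summed to the same total, so depth and counting error cannot be computed. Per the submitters' processing notes, hg38 was the build; the sources used here do not name an aligner, a counter or an annotation.

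The test ran on log2(TPM + 1), with limma 3.58.1 in R 4.3.3 (moderated variance, mean trend), over genes that reached 1 TPM in 4 or more libraries of their table. Calls needed an adjusted p (Benjamini-Hochberg, over every gene tested) under 0.05. Set 1 was fitted on its 8 libraries, and sets 2 and 3 in 1 model of 12. Fold changes understate those of low genes. HUWE1 also had an exact permutation test. The labels call the 4 libraries of a group biological replicates. The procedure was tested on simulated data with noise drawn separately for each gene and library. That setting holds no shift of a library across many genes, such as that between control replicates 1 and 4 of sets 2 and 3.

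The members, the role groups, the list of other modification genes and the motifs were chosen with earlier results of these data known. Named with every value are enzymes called alike in sets 1 and 3, up to 6 called enzymes with the largest rise and fall in each set, and the listed complexes. Of these, 1 gene is counted in the totals and not reported by name. Other pathway genes are named by the 4 smallest p in each direction. WDR4, WDR6, PRORP and further subunits of the m6A writer were added as partners. The motif GACGTCA and the fit without 2 controls were added too, all after values or letters were seen. Of the 81 symbols, 81 were matched to GENCODE 29 for coordinates, and 66 to RefSeq promoters. Exons of 13 members overlap another gene on the same strand and of 33 on the other. As alternatives, the pseudocount was set to 0.1, the filter was dropped or raised to a mean of 5 TPM, values were rescaled (quantile, median-of-ratios, or without mitochondrially encoded genes), the replicate number was a block, only the 2 groups compared were fitted, and each library was left out. No library was identical to another.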

Additional observations from a re-analysis of the deposited data

Results flagged for a closer look

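Within groups of 4 libraries, 8 of the 125 groups checked had 1 library far from the other 3 (25 genes in 5 groups; chance flags about 1 in 20). METTL1 was at 81.93 TPM in set 1 control replicate 1, above the other controls. TRMT6 was at 33.62 TPM and ADAT2 at 46.13 TPM in set 1 HUWE1 replicate 1, both above the other HUWE1 libraries. FTSJ1 was at 53.85 TPM in set 3 HUWE1 replicate 4 and TRMT2B at 36.55 TPM in set 3 HUWE1 replicate 2, both below the other HUWE1 libraries. ELP3 was at 33.19 TPM in set 2 HUWE1 replicate 1, above the others of that set. ELP4 was at 2.683 TPM and TRMT112 at 237.9 TPM in control replicate 1 of sets 2 and 3, both below the other controls.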

How the results depend on the processing

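In set 1 the count of members lower was within 22 to 26 under all 15 alternatives, and the count higher was 7 with median-of-ratios scaling, 2 with no filter, 8 with quantile normalization and between 2 and 4 when a library was left out. In set 2 no alternative called a member. In set 3 the count of members lower was 11 with quantile normalization, 2 with no filter, 11 with median-of-ratios scaling, 1 with only the 2 groups compared, 1 to 31 when a library was left out and 19 without control replicates 1 and 4 together. The count of members higher in set 3 was 2 with a mean TPM of 5 or more, 0 to 4 when a library was left out and 2 without both controls. The number of members that differed between sets 3 and 2 was 0 or 1 when a library was left out. With the replicate block, 24 members were lower and 5 higher in set 1, none was called in set 2, and 2, MRM1 and FTSJ1, were lower in set 3 (1.34% of all genes), so that TRMT61A, METTL1, CTU2, ALKBH8 and TRMT44 lost their calls there, where 693 of all genes were called in place of 1839. The labels share replicate numbers, but same-numbered libraries did not deviate together in every pair (correlations of 0 to 0.052 in set 1, -0.481 to 0.039 in set 2 and -0.027 to 0.407 in set 3). The cause of these changes was not tested.

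Signs turned only in differences near 0 that no fit called. With median-of-ratios scaling METTL14 was at 0.011 in set 1 and -0.002 in set 3, and ADAT3 at 0.002 in set 1. With quantile normalization METTL14 was at 0 and ADAT3 at 0.005 in set 1. Without mitochondrially encoded genes METTL14 was at 0.003, -0.014 and -0.025 in sets 1, 2 and 3, and ELP2 at -0.01 and TRMT112 at -0.014 in set 2. Without control replicates 1 and 4 together, set 2 gave METTL3 at -0.007, CTU1 at 0.003, ELP4 at -0.051 and TRMT112 at -0.045, and set 3 gave TRMT112 at -0.004. With each library left out, set 1 gave -0.029 to 0.021 for METTL14, -0.023 to 0.034 for ADAT2, -0.076 to 0.034 for ADAT3, -0.005 to 0.006 for ELP2 and -0.046 to 0.002 for ELP3. Set 2 gave -0.177 to 0.004 for TRMT6, -0.013 to 0.043 for METTL3, -0.035 to 0.033 for METTL14, -0.034 to 0.041 for ELP2, -0.052 to 0.047 for ELP4 and -0.039 to 0.026 for TRMT112. Set 3 gave -0.023 to 0.038 for METTL14, -0.019 to 0.082 for ADAT2, -0.005 to 0.07 for ELP2, -0.028 to 0.001 for ELP3, -0.04 to 0.006 for ELP6 and -0.009 to 0.087 for ALKBH7.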
